A study of Homo sapiens with 24 samples.

Results

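The regions described here gained the histone mark H3K27ac after knockdown (KD) of TWIST2 at places where the muscle regulator MYOD was called both in control and in KD cells. They were chosen from 8 ChIP-seq peak lists (ChIP-seq sequences the DNA that an antibody pulls down with its target). The 4 H3K27ac lists were merged into regions wherever peaks overlapped by 1 bp, and the 4 MYOD lists were merged in the same way on their own. A member region had an H3K27ac peak in both KD lists and in neither control list, overlapped a MYOD region with a peak in all 4 MYOD lists (a constant MYOD region), and overlapped no MYOD region found in both KD lists and neither control list. There were 1033 members among 55905 merged H3K27ac regions (1.85%). Of all H3K27ac regions, 19.8% were gained, meaning both KD lists and neither control list, and 4.21% were lost, meaning the reverse; of 88541 MYOD regions, 20.3% were constant and 9.1% were gained. These classes come from the rule and are not findings about the members.

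All cells were RD, an established human line of fusion-negative rhabdomyosarcoma. The groups were RD cells of genotype control and of genotype TWIST2 KD, each with 2 libraries for H3K27ac, for MYOD and for SMARCA4 (antibody to BRG1), and RD cells labelled 3xTy1-TWIST2, with 2 libraries for the Ty1 tag. The titles name SMARCA4 samples RD-2 and all the others RD-1, and the sources used here do not say what separates RD-1 from RD-2, how TWIST2 was knocked down, how the tagged protein was expressed, or whether the 2 libraries of a group came from separate cultures. The spread between libraries may therefore be technical, and SMARCA4 carries another set name than the lists that defined the members. H3K27ac lists held 36679 and 34932 peaks in control and 48022 and 46822 in KD. MYOD lists held 44974 and 43381 in control and 52510 and 48003 in KD. For both, each KD list was longer than each control list, so gained regions come from the longer lists. With lists of equal length the rule found 683 members. There were 71100 and 74087 peaks for Ty1, and 11835, 25013 (control), 12518 and 14676 (KD) for SMARCA4. Only the SMARCA4 files give depth, at 36095336 to 46690705 tags per library. All positions are in build hg19. Without an annotation of that build no gene is named, and the muscle markers of the line were not analysed here.

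MYOD is a basic helix-loop-helix factor that binds E-box sequences and drives the skeletal muscle programme. TWIST2 belongs to the same factor family, is expressed in mesenchymal cells, and is known as an inhibitor of myogenic differentiation. H3K27ac is laid down by acetyltransferases at active enhancers and promoters, so a site can carry a bound factor without carrying the mark. SMARCA4 is an ATPase of the SWI/SNF complexes, which move and evict nucleosomes. Rhabdomyosarcoma cells express MYOD yet do not complete muscle differentiation.

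Members were a small class on both sides of the rule. They made up 9.32% of the 11079 gained H3K27ac regions (95% Wilson interval 8.8 to 9.88; Wilson intervals here cover counting error only). The remaining gained regions overlapped a gained MYOD region (2365, 21.3%), MYOD regions of other classes only (4053, 36.6%) or no MYOD region (3628, 32.7%). Seen from MYOD, the members held 1041 of the 17971 constant MYOD regions (5.79%), whereas 12947 (72%) lay in H3K27ac regions present in all 4 lists and 1648 lay outside any H3K27ac region. Among the 15459 H3K27ac regions that overlapped a constant MYOD region, 6.83% were gained.

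Single, short acetylated stretches made up most of the class. The median width of a member was 1560 bp (quartiles 1212 and 1933), from 510 to 8217 bp, and the members covered 1736 kb together. Gained regions with gained MYOD had a median of 1658 bp, gained regions without MYOD 1304 bp, and constant H3K27ac regions with constant MYOD 2920 bp. KD library 1 had exactly 1 peak in 1029 members and KD library 2 in 1032. A single constant MYOD region was found in 1025 members, and 8 members had 2. A further MYOD region, of a class other than constant or gained, lay in 111 members (10.7%), and in 7 of them that region was found in the control lists only.

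The H3K27ac peaks of the members lay in the lower and middle part of their lists. The files do not say what the order of a list means. In the H3K27ac lists, position followed peak width (Spearman's rho 0.943 to 0.95 across all peaks) and repeated between replicates across the regions in all 4 lists (0.991 for control, 0.995 for KD). On a scale where 100 is the top of the list, the median member peak stood at percentile 38 in KD library 1 and 35.7 in KD library 2. Only 4 and 3 members reached the top 10% of those lists.

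The MYOD site sat near the middle of the acetylated stretch. Of the MYOD centres, 76% (73.3 to 78.5) lay in the central part of the H3K27ac region when it was divided into 3 equal parts, 42.6% lay within 100 bp of its centre, and the median distance to the centre was 122 bp. The rule asked for overlap only and did not use this position. Gained MYOD regions inside gained H3K27ac had nearly the same share in the central part (75.9%, 74.2 to 77.6, n = 2404) and a median distance of 132 bp. Constant MYOD sites in lost H3K27ac regions had a share of 57% (51.9 to 61.9, n = 372). For constant MYOD sites in constant H3K27ac regions, which are wider, the share was 68.8% (68 to 69.6) and the median distance 310 bp. These shares were not tested between classes, since sites of the same libraries are not replicates.

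**Figure D1:**
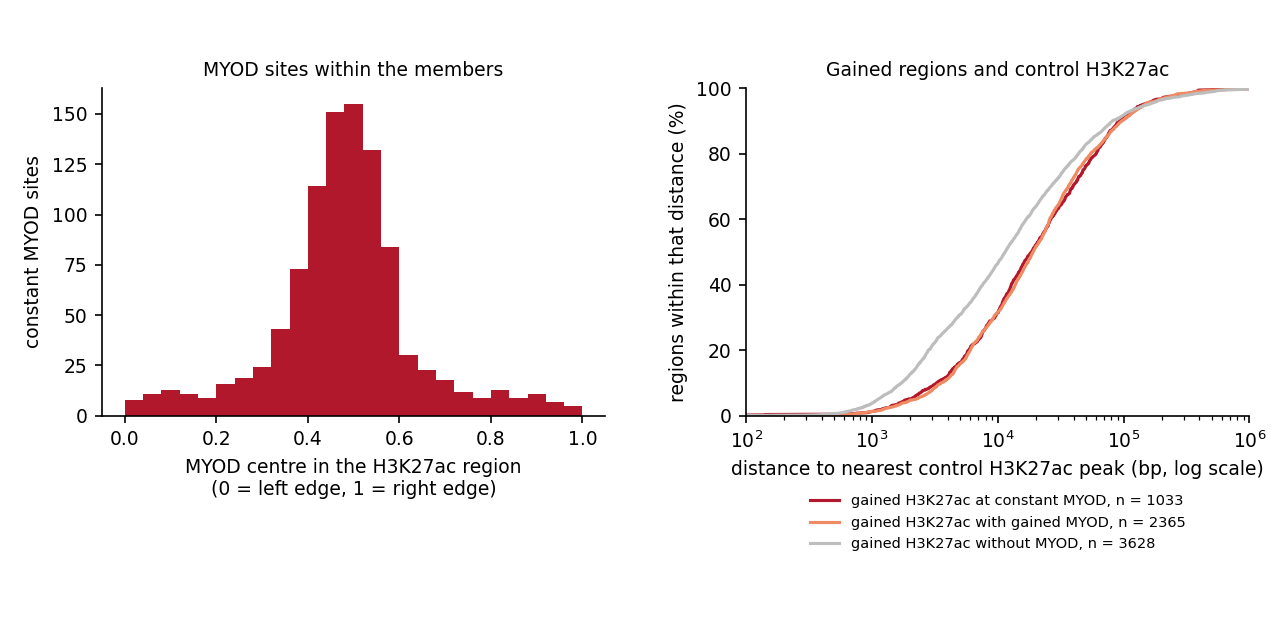
Left, position of the MYOD centre along the member H3K27ac region for the 1041 constant MYOD sites (41 centres fall outside the region and are not drawn); right, cumulative percent of gained regions within a given distance (bp, log scale) of the nearest H3K27ac peak of either control list. MYOD centres pile up in the middle of the members, and the curve of the members lies to the right of the curve for gained regions without MYOD.

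Few members lay next to a region that was acetylated in control cells. The median distance from a member to the nearest H3K27ac peak of either control list was 18486 bp (95% interval of the median 16209 to 20869; quartiles 7503 and 47534). A control peak lay within 1 kb of 1.26% of members (0.737 to 2.14), within 5 kb of 16.3% (14.1 to 18.6) and within 50 kb of 76.2% (73.5 to 78.7). Gained regions without MYOD lay closer to control peaks, with a median of 11441 bp and 30.8% (29.4 to 32.4) within 5 kb, while gained regions with gained MYOD had 19052 bp and 15.8%. Measured to the control lists one at a time, the median of the members was 20517 bp and 22826 bp. The rule used the control lists, so these distances are a description. The plot of distances shows the members and the gained regions with gained MYOD on nearly the same curve.

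Members were scattered over the genome. Neighbouring members were a median of 601323 bp apart (quartiles 199597 and 1541702), and 587 of the 782 windows of 1 Mb that held a member held just 1. The nearest other gained H3K27ac region lay a median of 44365 bp away, and 19.4% of members had one within 10 kb. A gained MYOD region lay within 10 kb of 10.9% of members, beside 11.5% of constant H3K27ac regions with constant MYOD and 11.2% of gained regions without MYOD. The window with the most members was chromosome 17 from 39000001 to 40000000, with 6 members among 15 gained H3K27ac regions, 16 constant MYOD regions, 4 gained MYOD regions and 21 TWIST2 regions. It was followed by windows with 4 members each, such as chromosome 10 from 73000001 to 74000000 and chromosome 2 from 55000001 to 56000000. By chromosome, the members' share of the gained regions ran from 4.1% on X (13 of 317) and 4.85% on chromosome 13 (21 of 433) to 13.9% on chromosome 22 (23 of 165) and 14.2% on chromosome 19 (18 of 127). Chromosome 1 had the most members, 92. The order depends on the denominator. Out of members and constant H3K27ac regions with constant MYOD together, members made up 3.38% on chromosome 19, the lowest share, 10.3% on chromosome 13 and 11.3% on chromosome 5, the highest.

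MYOD was on these sites in control cells, but low in the lists, and it stood higher after knockdown. To compare lists of different lengths, each constant MYOD region was ranked among the 17971 constant MYOD regions within each list, with 100 as the top and 50 as the median of all. In control libraries 1 and 2, the median member site ranked at percentile 23.9 and 26.5. In KD libraries 1 and 2 it ranked at 56.4 and 55. Both KD medians thus lay above both control medians, with a far smaller gap between the replicates of a group. At constant MYOD sites in constant H3K27ac regions the medians were 58.5 and 58.8 in control and 53.8 and 54.3 in KD. At those in lost regions they were 37.6 and 39.1 in control and 26.5 and 21.6 in KD. Constant MYOD sites outside any H3K27ac region started as low as the members, at 23.2 and 22.2, and stood at 29 and 25.1 after knockdown.

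**Figure D2:**
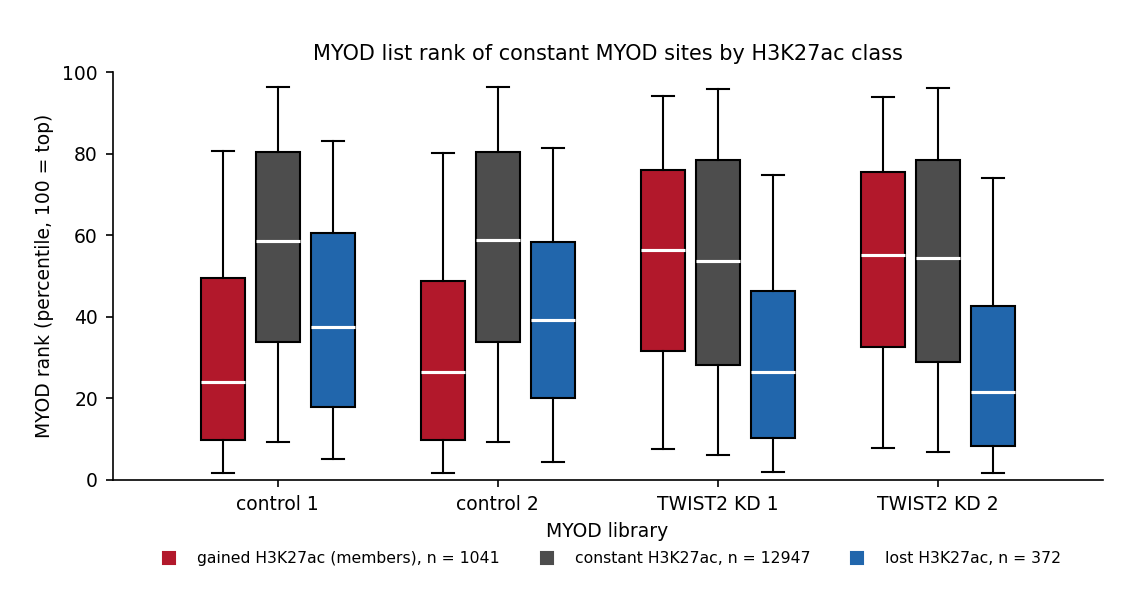
Rank percentile of constant MYOD sites (100 = top of the list) in each of the 4 MYOD libraries, for sites in member regions, in constant and in lost H3K27ac regions; boxes show quartiles with the median as a white line, and whiskers reach the 5th and 95th percentiles. The median of the member sites goes from 23.9 and 26.5 in control to 56.4 and 55 in KD, and that of the sites in lost regions from 37.6 and 39.1 to 26.5 and 21.6.

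Site by site, 689 of the 1041 member sites (66.2%) had both KD ranks above both control ranks, and 57 (5.48%) had both below. Over all constant MYOD regions these shares were 27.4% and 31.3%. In constant H3K27ac regions 21.5% of sites had both KD ranks above and 36.7% both below, and in lost regions 10.2% and 44.4%. The median change of a member site, mean of KD minus mean of control, was 20.9 rank points (quartiles 6.05 and 37.6), beside -3.09 points in constant and -8.55 points in lost H3K27ac regions. Within the groups, the median difference between replicates at member sites was 0.317 points in control and -0.484 points in KD. MYOD order repeated between replicates across constant regions with a Spearman's rho of 0.894 for control and 0.859 for KD. The rule chose the members by H3K27ac and MYOD calls in these same libraries, so these values describe them and carry no test. The order of the MYOD lists was not documented, and a change of rank is not a measured change of binding.

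The sites were also grouped by their rank in control. Among sites with a mean control rank of 0 to 25, both KD ranks lay above both control ranks for 72.8% of the member sites (374 of 514) and for 37.2% of the sites in constant H3K27ac regions (746 of 2004). At control ranks of 25 to 50 the shares were 61.4% and 22.1%, and at 50 to 75 they were 60.9% and 17.9%. Of the 76 member sites at control ranks of 75 to 100, 51.3% (40.3 to 62.2) had both KD ranks above, beside 16.4% of the sites in constant H3K27ac. At each of the 4 levels of control rank the members' share was the higher one, and the sites in lost regions had the lowest, from 16.8% down to 2.78%. Over all constant MYOD regions the shares at these levels were 45.1%, 26.8%, 20.6% and 17.5%. In every class the share was thus highest where the control rank was lowest. The grouping and the outcome use the same control ranks, and a low rank leaves more room to rise, so this fall is partly built in. The rule also used the MYOD lists, so the shares of the members are a description and carry no test.

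**Figure D3:**
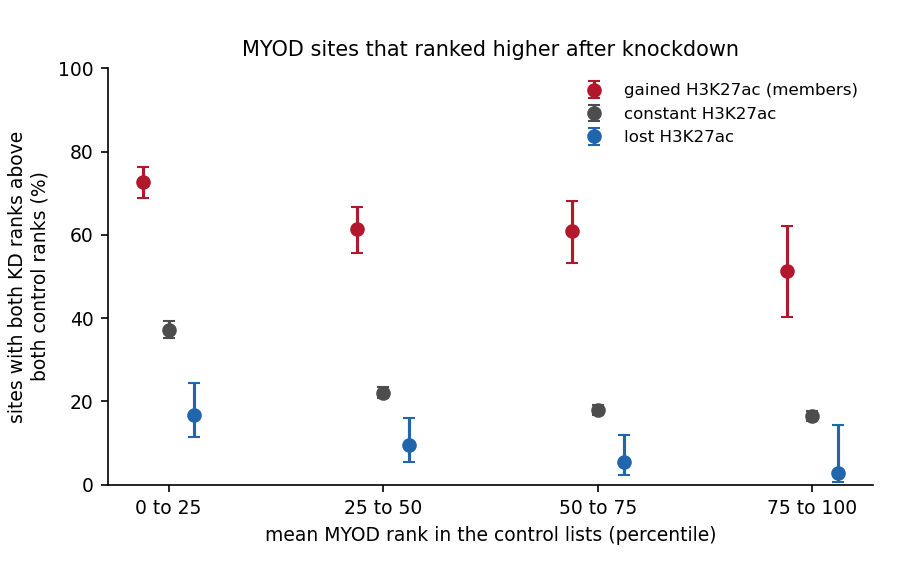
Percent of constant MYOD sites whose ranks in both KD lists lay above both control ranks, by the mean rank in the control lists, for sites in member, constant and lost H3K27ac regions; bars are 95% Wilson intervals, which cover counting error only. The member sites lie between 51.3% and 72.8% and the sites in constant H3K27ac between 16.4% and 37.2%.

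The rank of MYOD went with the size of the gained mark among the members. Across the 1033 members, the mean list percentile of the H3K27ac peak in KD correlated with the mean MYOD rank in KD (Spearman's rho 0.483) more closely than with the MYOD rank in control (0.169), and with the change of MYOD rank at 0.378. The members share libraries and are not independent, and no test was made. Both values come from lists that the rule used, and the change of MYOD rank contains the KD rank. Values for other H3K27ac regions are not given here, so the relation is not shown to be particular to gained regions. In the 259 members with the lowest H3K27ac percentiles (median width 951 bp), 42.9% had a MYOD site that ranked higher in both KD lists. That share was 64.7% and 73.6% in the groups between, and 84.5% in the 258 members with the highest H3K27ac percentiles (median width 2263 bp). The median MYOD rank in control was 21, 23.9, 23.7 and 35 in these groups, in the same order, and in KD it was 34, 49.4, 61.3 and 73.4. Overlap with a TWIST2 region, a merged Ty1 region with a peak in both Ty1 lists, was found for 40.9%, 55%, 51.2% and 60.5% of the members in these groups, whose widths differ.

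Regions just outside the rule show where its limits fall. A further 865 regions met the rule except that 1 control list also had an H3K27ac peak. Their median width was 1752 bp, their median MYOD ranks were 34.6 and 33.3 in control and 55.3 and 56.7 in KD, and 56.9% of them had a MYOD site with both KD ranks above both control ranks. Another 367 regions had an H3K27ac peak in only 1 KD list and in no control list. They were narrow, with a median of 628 bp, and their MYOD ranks were 22.3 and 22 in control and 43.9 and 44.7 in KD. Their share with both KD ranks above both control ranks was 56.4%, beside 66.2% in the members and 27.4% over all constant MYOD regions. Gained H3K27ac regions whose best MYOD region was found in 3 of the 4 lists numbered 1028, about as many as the members themselves, and 23 gained regions were left out because they held a gained MYOD region beside the constant one.

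The widest members showed these features at single loci. The member on chromosome 12 from 117295368 to 117303584 was 8217 bp wide, with single H3K27ac peaks of 8216 and 7863 bp in the KD lists and the nearest control peak 37644 bp away. Its MYOD site, from 117299196 to 117299420, ranked at 18.2 and 21.9 in control and at 69 and 62.1 in KD. No SMARCA4 list had a peak there. The member on chromosome 22 from 40904521 to 40910276 (5756 bp) had a MYOD site near the bottom of the control lists, at 2.38 and 0.147, that ranked at 81.1 and 72.4 in KD. A similar jump, from 1.24 and 4.91 to 88.1 and 94, was seen in the member on chromosome 14 from 22805853 to 22810599 (4747 bp). Over all members, 66.2% of the MYOD sites had both KD ranks above both control ranks, and 51.9% of the members overlapped a TWIST2 region. All 8 members with the highest H3K27ac width percentiles had a MYOD site with both KD ranks above both control ranks, and 4 of them overlapped a TWIST2 region. Among the 8 members with the highest MYOD sites over the 4 lists, 6 did, and 4 overlapped a TWIST2 region. The first of these, on chromosome 10 from 112465909 to 112467363, ranked at 97.7 and 97.9 in control and at 98 and 99.6 in KD, so a MYOD site near the top of the control lists could also lie where no control H3K27ac peak was called.

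**Figure D4:**
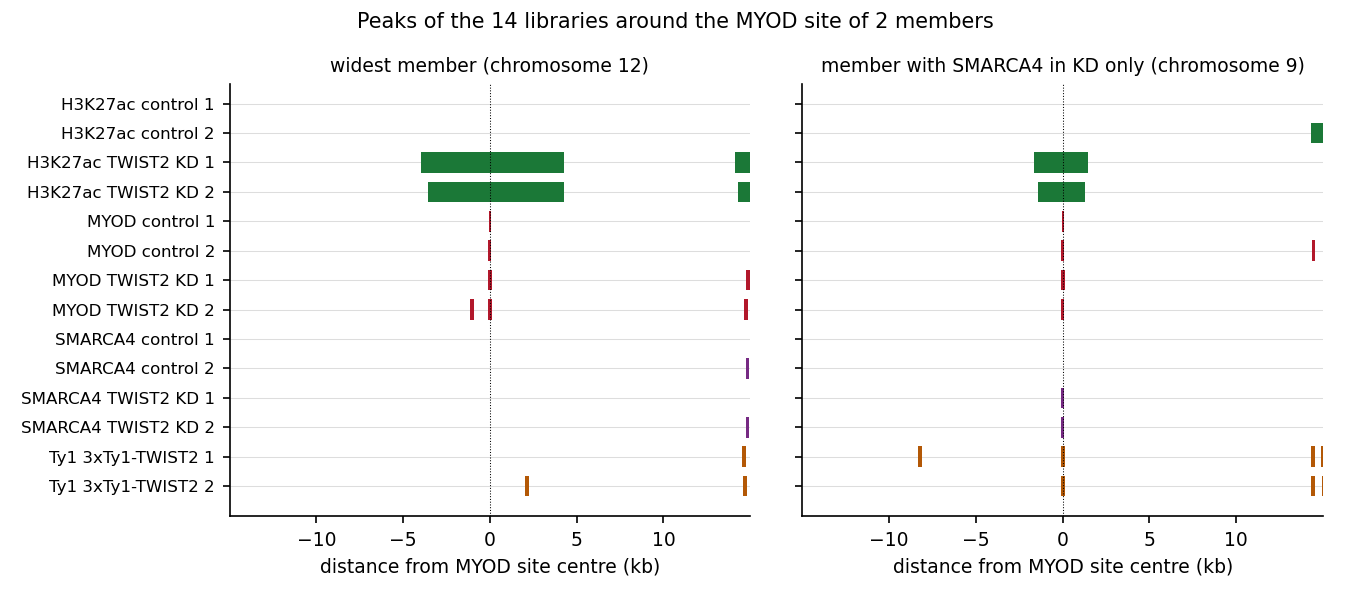
Called peaks of the 14 libraries as bars, by distance (kb) from the centre of the constant MYOD site, for the widest member and for the first-named member with SMARCA4 peaks in both KD and neither control list. H3K27ac bars are present over the MYOD site in the KD rows alone, while MYOD bars are present in all 4 MYOD rows; peaks that run past 15 kb are cut at the edge.

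Tagged TWIST2 was called at many members. Ty1 library 1 had a peak in 640 members (62%, 59 to 64.9) and Ty1 library 2 in 642 (62.1%, 59.2 to 65.1). A TWIST2 region overlapped 536 members (51.9%, 48.8 to 54.9). No Ty1 peak was found in 303 members. The share was 34.2% for gained regions with gained MYOD, 35% for those with other MYOD, 20% for those without MYOD, 62.7% for constant H3K27ac regions with constant MYOD and 40.3% for lost regions with constant MYOD. Wider regions have more room for a peak. With all regions set to 1000 bp around their centre, the members had 49.9%, gained regions with gained MYOD 31.9%, gained regions without MYOD 19.3% and constant regions 44%. The members thus lay above the other gained regions at either width, but below the constant class as deposited and above it at 1000 bp. The 1000 bp were set around the centre of the H3K27ac region. The MYOD site lay a median of 122 bp from that centre in members and 310 bp in constant regions. The cut therefore does not treat these 2 classes alike, and their order at 1000 bp is no correction for width. Per library, members exceeded gained regions with gained MYOD by 17.3 and 18 percentage points (exact two-sided sign-flip permutation test over 2 libraries, p = 0.5, the smallest that 2 libraries allow).

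At the MYOD site itself, the share of members with tagged TWIST2 was close to that of constant MYOD sites in constant H3K27ac and above that of those in lost regions. A TWIST2 region overlapped 47.7% (44.7 to 50.8) of the 1041 member sites, 48.7% (47.8 to 49.6) of the constant sites in constant H3K27ac and 36.3% (31.6 to 41.3) of those in lost regions. In the 2 Ty1 libraries, the share at member sites was 55.4% and 56.4%, beside 58.3% and 58.4% at sites in constant H3K27ac. The difference was -2.43 percentage points (-2.87 and -1.99 in the 2 libraries; exact sign-flip permutation p = 0.5), and it changed sign without MYOD KD library 1 (0.517 points) or 2 (0.786 points). Against lost regions the member sites were higher by 6.5 and 10.7 points (exact sign-flip permutation p = 0.5). TWIST2 and MYOD centres were within 50 bp of each other at 27% of member sites, 26.1% of sites in constant H3K27ac and 17.5% of sites in lost regions. Where both overlapped in members, the median distance between centres was 42.5 bp. Another 42 members had a TWIST2 region away from the MYOD site only.

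The higher MYOD rank after knockdown was seen at member sites with and without tagged TWIST2. Both KD ranks lay above both control ranks at 65% of the 497 member sites that overlapped a TWIST2 region and at 67.3% of the 544 that did not. Median ranks were 25.6 and 29.5 in control and 57.2 and 57.7 in KD with TWIST2, and 22 and 23.4 in control and 56.1 and 52.4 in KD without it. Per Ty1 library, members with a MYOD site that ranked higher in both KD lists differed from other members in the share with a Ty1 peak by -3.75 and -0.854 percentage points (mean -2.3 points, exact sign-flip permutation p = 0.5). The tagged protein was mapped in cells other than the control and KD libraries, so its presence at a member in control cells was not measured.

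SMARCA4 was called at fewer than 1 in 3 members in each library, and at 589 members (57%, 54 to 60) in at least 1 of the 4. The direction of the difference between control and KD depended on the length of the lists. Control libraries 1 and 2 had a SMARCA4 peak in 15.6% (13.5 to 17.9) and 31.7% (28.9 to 34.6) of members, and KD libraries 1 and 2 in 20.2% (17.9 to 22.8) and 23.3% (20.9 to 26). Both KD values lay between the control values. The means were 23.6% ± 11.4 (SD, n = 2) in control and 21.8% ± 2.19 (SD, n = 2) in KD, a difference of -1.84 percentage points (exact two-sided permutation test, p = 1; 2 against 2 libraries cannot go below 0.33). The control libraries decide the sign, since the difference was 6.2 points without control library 2 and -9.87 points without control library 1. Control library 2 had the longest list, 25013 peaks from 44810601 tags, and control library 1 the shortest, 11835 peaks from 46690705 tags. When all 4 lists were cut to the 11835 peaks of highest score, members had SMARCA4 in 15.6% and 11.6% (control) and 19.8% and 20.9% (KD), so that both KD values lay above both control values (difference 6.78 points, exact permutation p = 0.33, the smallest possible). With lists cut in this way, gained regions with gained MYOD had 2.58% and 0.719% in control and 10.3% and 11.5% in KD, and constant H3K27ac regions with constant MYOD had 33% and 39.7% in control and 29.4% and 28.1% in KD.

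Members had a SMARCA4 peak at a higher share than the other gained regions in each of the 4 SMARCA4 libraries, in differences that did not pass the test. Gained regions with gained MYOD had SMARCA4 in 2.58% and 5.75% (control) and 11.2% and 14.5% (KD), and gained regions without MYOD in 0.606%, 2.15%, 2.54% and 3.8%. Members exceeded the former by 14.2 ± 8.02 percentage points (SD, n = 4 libraries, from 8.87 to 25.9) and the latter by 20.4 ± 6.33 points, from 15 to 29.5 (exact two-sided sign-flip permutation test, p = 0.13 each, the smallest that 4 libraries allow, and 0.225 after Benjamini-Hochberg adjustment over 9 comparisons). Constant H3K27ac regions with constant MYOD had SMARCA4 in 33% and 58.4% (control) and 30.2% and 30.1% (KD), and members lay below them by 15.2 points on average (difference -15.2 ± 8.9, n = 4; exact sign-flip p = 0.13, adjusted 0.225). Neither adjusted value passes 0.05, while the direction was the same in 4 of 4 libraries for each of these 3 comparisons. Setting all regions to 1000 bp gave the members 15.3%, 30.8%, 19.2% and 22.9%, gained regions with gained MYOD 2.37%, 5.45%, 10.3% and 13.3%, and constant regions 22.9%, 40.9%, 20.2% and 20.4%, for control 1, control 2, KD 1 and KD 2. At that width the order of members and constant regions was no longer the same in all libraries. MYOD sites lie further from the region centre in constant regions, so the cut does not treat these 2 classes alike.

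**Figure D5:**
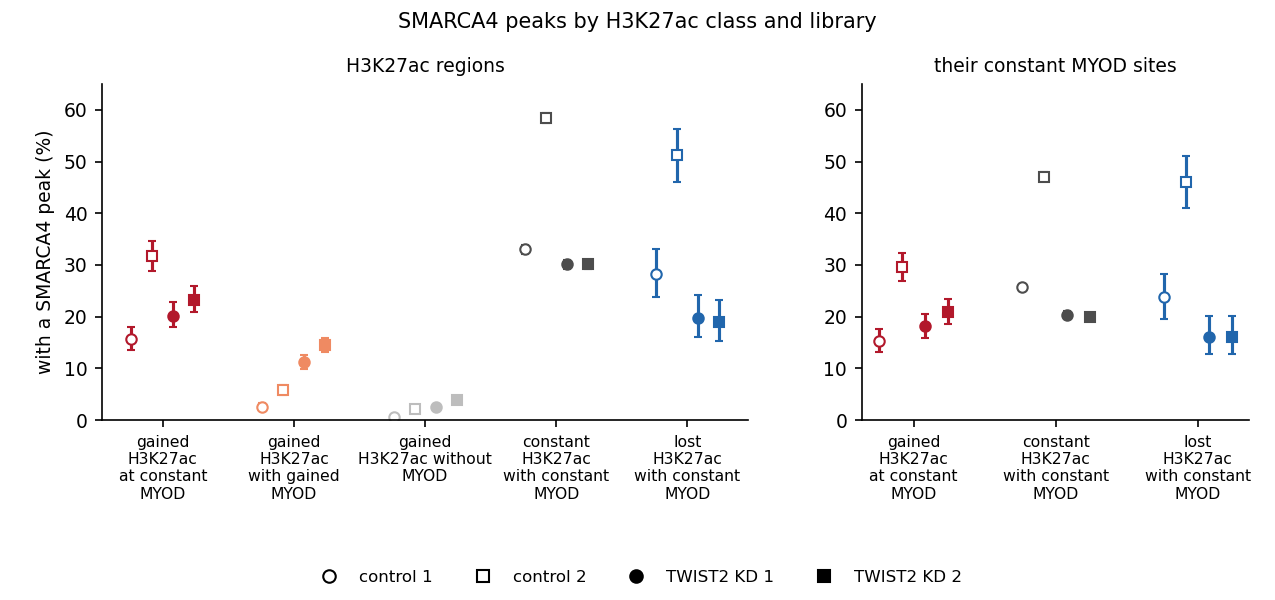
Percent of H3K27ac regions (left) and of their constant MYOD sites (right) with a SMARCA4 peak in each of the 4 SMARCA4 libraries (open, control; filled, TWIST2 KD), with 95% Wilson intervals. Members lie between 15.6% and 31.7% in every library, above gained regions with gained or without MYOD; in constant H3K27ac the control values lie above the KD values, and in members they lie on either side of them.

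At MYOD sites, of similar median width in members (279 bp) and in constant H3K27ac (286 bp), the shares of the 2 classes lay further apart in the control libraries than in the KD libraries. SMARCA4 overlapped 15.3% and 29.6% of the member sites in control and 18.2% and 20.9% in KD. In constant H3K27ac it overlapped 25.7% and 47.1% of the sites in control and 20.3% and 19.9% in KD. The ratio of the share at member sites to the share at sites in constant H3K27ac was 0.595 and 0.628 in control libraries 1 and 2, and 0.896 and 1.05 in KD libraries 1 and 2. The 2 groups did not overlap, with means of 0.611 ± 0.0239 (SD, n = 2) and 0.975 ± 0.111 (SD, n = 2) and a difference of 0.363 (exact two-sided permutation test, p = 0.33, the smallest possible). With the lists cut to equal length, the shares at member sites were 15.3% and 11% in control and 17.8% and 19.1% in KD, and those at sites in constant H3K27ac 25.7% and 32.5% in control and 19.8% and 18.7% in KD. With all deposited peaks, the ratio over whole regions was 0.472 and 0.542 in control and 0.671 and 0.776 in KD.

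Most members had no SMARCA4 peak or had it in 1 list. SMARCA4 was found in none of the 4 lists at 444 members (43%), in 1 list at 334, in 2 at 176, in 3 at 64 and in all 4 at 15 (1.45%). Peaks in both KD and neither control list occurred at 28 members (2.71%, 1.88 to 3.89), and peaks in both control and neither KD list at 41 (3.97%, 2.94 to 5.34). Each of the 48009 merged SMARCA4 regions has a peak in at least 1 list, so the members to set beside them are the 589 with any SMARCA4 peak. Of these, 2.55% (1.55 to 4.16) had SMARCA4 in all 4 lists, 4.75% (3.31 to 6.78) in KD only and 6.96% (5.17 to 9.31) in control only. Of all SMARCA4 regions 1.11%, 1.91% and 6.68% had these patterns, but a member region is wider than a SMARCA4 region and can hold several, so the shares are not of the same kind of unit. Over all constant H3K27ac regions with constant MYOD, 238 (1.97%) had SMARCA4 in KD only and 1090 (9.01%) in control only. Over all gained regions with gained MYOD the counts were 59 (2.49%) and 9 (0.381%). These shares belong beside the 2.71% and 3.97% of all members, not beside those of the 589. The classes differ in the share without any SMARCA4 peak, which was 21.4% for the constant regions, 73.2% for the gained regions and 43% for members. Where members had a SMARCA4 peak, its median score percentile within the list was 39.7 and 42 in control and 60.1 and 63 in KD. The scores are the authors' own, and percentiles from lists of 11835 to 25013 peaks are not on 1 scale. The deposited normalized tag signal went the other way. At the 15 members with SMARCA4 in all 4 lists its median was 6.43 and 6.92 in control and 5.54 and 6.09 in KD. A higher percentile or rank in KD is therefore not a higher SMARCA4 signal. Ranked among the 534 SMARCA4 regions found in all 4 lists, which gives each list the same length, the 11 such regions at members had median ranks of 22.8 and 27.8 in control and 56.6 and 54.8 in KD (difference 30.4 points, exact permutation p = 0.33, the smallest possible). Only 4 of the 11 had both KD ranks above both control ranks, beside 113 of the 534 (21.2%). Most of the 11 thus did not meet this strict condition, and 11 regions are few. The list order of the 534 regions repeated between replicates with a Spearman's rho of 0.833 in control and 0.63 in KD.

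A pair of members shows the opposite SMARCA4 patterns. On chromosome 9, the member from 32486546 to 32489621 (3076 bp) had SMARCA4 scores of 30 and 29 in the KD libraries and no peak in control. Its MYOD site ranked at 59.3 and 41.8 in control and 94.1 and 95.1 in KD, and a TWIST2 region overlapped that site. The map of its peaks shows SMARCA4, MYOD and Ty1 peaks stacked at the same position. The opposite pattern occurred on chromosome 10 from 105251117 to 105254168 (3052 bp), where SMARCA4 scored 63 and 68 in control with no KD peak, and MYOD ranked at 92.5 and 90.1 in control and 95.9 and 97.2 in KD. Of the 6 named members with SMARCA4 in KD only, 5 had both MYOD ranks higher in KD, as did 4 of the 6 named members with SMARCA4 in control only and 2 of the 6 with SMARCA4 in all 4 lists. This held for 66.2% of all member sites and 27.4% of all constant MYOD regions, and sets of 6 are too small to set the SMARCA4 patterns apart.

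SMARCA4 shares were higher at members that overlapped a TWIST2 region, in a difference that did not pass the test. With TWIST2, the shares were 19.8% and 36.8% in control and 21.6% and 24.4% in KD, and without it 11.1% and 26.2% in control and 18.7% and 22.1% in KD. The difference was 6.14 ± 4.14 percentage points (SD, n = 4 libraries, from 2.31 to 10.6), higher in 4 of 4 libraries (exact sign-flip permutation p = 0.13, adjusted 0.225 over the 9 comparisons). These shares are for whole regions, and none is given at a fixed width. From members with the lowest to those with the highest H3K27ac percentiles, which are wider, the SMARCA4 share rose in KD (16.6% to 24.8% and 17.4% to 26.7%). It did not rise in control (19.7% to 13.2% and 32% to 31.4%). The part of width in the difference was not tested. TWIST2 and a SMARCA4 peak in any list were both found at 342 members, and neither was found at 250. Member sites with SMARCA4 in any list and those without it had both KD MYOD ranks above both control ranks in 68.3% and 63.7% of cases. The SMARCA4 share at members whose MYOD site ranked higher in KD differed from that at other members by 1.32 ± 5.64 points (SD, n = 4; exact sign-flip permutation p = 0.75), with both signs among the libraries.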

How the data were processed

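ChIP-seq peak lists of 14 of the 24 samples were used; the other 10 are inputs and were not used. Files of H3K27ac, MYOD and Ty1 peaks, deposited per library, hold positions (chromosome, start, end) and no score; no source used here gives their caller settings. Per the file headers, the SMARCA4 lists were made by HOMER in factor style at a false discovery rate of 0.001 with 4-fold enrichment; the deposited score and normalized tag signal of each peak are the authors' values. The submitters' processing notes name hg19 (GRCh37), HOMER 4.4, Bowtie2 2.3.4.3, SAMtools 0.1.19 and bedtools 2.29.2. SMARCA4 starts were read as 1-based.

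Merging, overlap (at least 1 bp) and ranks were done in Python 3.11.15 with pandas 2.3.3, numpy 2.4.6 and scipy 1.17.1, and plots with matplotlib 3.10.9. The member rule, with its merging and overlap, was tested on simulated lists, and the ranks, shares and permutation tests were not. Libraries were the units of the exact permutation tests; calls used a threshold of 0.05. Regions named are the 8 members with the highest mean H3K27ac width percentile, the 8 with the highest MYOD list position, up to 6 per SMARCA4 pattern, the 4 with the most constant MYOD regions and the 3 windows with the most members, of which the text gives examples. The members, lists and rules were chosen with earlier results of these data known. E-box sequences, genes and markers were not analysed here, as no hg19 genome or annotation was used. Alternatives covered merging, overlap, list length, peak width, the number of lists required, the replicate block and leaving out each library; added after seeing the data were the ranks and ratios of MYOD sites, the 1000 bp width, the shares by class with equal SMARCA4 lists, the ranks among SMARCA4 regions in all 4 lists, every alternative to the SMARCA4 differences between classes, and, for the SMARCA4 and TWIST2 values, those with equal H3K27ac and MYOD lists or MYOD in 3 of 4 lists.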

Additional observations from a re-analysis of the deposited data

How the results depend on the processing

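The number of members follows the rule closely. It was 683 with the same number of peaks in each H3K27ac and MYOD list, 2061 with MYOD asked for in 3 of 4 lists, and 1065 to 1544 when each H3K27ac or MYOD library was left out. Under a replicate block, with lists numbered 1 or 2 taken alone, it was 2318 and 2467. No pairing by replicate number was seen in list position, where replicate differences correlated between control and KD at 0.0327 (H3K27ac), 0.00361 (MYOD) and -0.0133 (SMARCA4). List position need not carry a shared culture or batch, so whether the samples were paired is not known.

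The SMARCA4 difference at members, KD minus control (-1.84 points), turned positive in the upper 0.5 of each list (2.17), with equal H3K27ac and MYOD lists (1.54), with equal SMARCA4 lists (6.78) and with MYOD in 3 of 4 lists (1.16), and ran from -9.87 to 6.2 when a library was left out. Under the replicate block it was -1.84 points. The SMARCA4 differences between members and the 3 other classes kept their direction in 17 settings each, and the ratio at MYOD sites (0.363) in 20 settings, from 0.284 to 0.443 with a library left out and 0.363 under the replicate block (exact permutation p = 0.5). The lowest p in any setting was 0.13, and none of these designs could reach 0.05.

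The TWIST2 share at members was 48.1% with MYOD in 3 of 4 lists, 70.7% with either Ty1 list, and 48.7% to 62.1% with a library left out. The TWIST2 difference at MYOD sites ran from -4.06 to 0.786 points with a library left out. The median distance to control H3K27ac was 31337 bp in the upper 0.5 of each list and 22826 bp from control list 2 alone.

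The share of member sites with both KD MYOD ranks above both control ranks was 57.4% in the upper 0.5 of each list, 76.6% with equal lists, 70.6% by position among all peaks, 72.2% under the replicate block and 62.8% to 77.4% with a library left out. The share over all constant MYOD regions was 27.2%, 27.9%, 31.7% and 32.9% in the first 4 of these settings. It was 27.4% without H3K27ac control library 1, which gave the 62.8%, and 37.8% without MYOD KD library 1, which gave the 77.4%. With a MYOD library left out, fewer ranks have to lie in order, so such shares are not on the same scale as the others. The cause of these moves was not tested. The H3K27ac, MYOD and Ty1 files give no depth, so a missing peak cannot be told from a shallow list. The planned E-box, gene and marker alternatives were not run.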
